A study of Mus musculus with 16 samples.

Results

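Motile cilia genes were described as a group of 40 genes chosen by name for their roles in building or beating motile cilia, of which 38 had a probe set carrying only their symbol, among 18194 genes measured on 16 arrays. Each gene was read from its brightest such probe set. Dnai1 and Dnai2, outer dynein arm intermediate chains, had no probe set under those symbols. The arrays held RNA from the efferent ducts and from the caput epididymis of adult male 129BL/6 mice, with 2 arrays in each of 8 groups. In both tissues the groups were sham-castrated mice given vehicle, castrated mice given vehicle, castrated mice given 0.015 mg of testosterone propionate, and castrated mice given 0.015 mg of estradiol. All mice had 14 days between surgery and treatment, and tissue was taken 12 hours after it. Vehicle was 100 µL of 10% ethanol in sesame oil for sham and castrated mice alike. Only the sham mice kept their testes, the source of sperm and of testicular hormone. The labels do not say that duplicate samples came from separate animals or whether tissue was pooled, so p-values measure only the spread between these samples.

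Motile cilia are beating projections built on a ring of microtubule doublets with a central pair. Outer and inner dynein arms drive the beat, radial spokes and the nexin-dynein regulatory complex coordinate it, and tektins and other microtubule inner proteins strengthen the doublets. A multiciliated cell copies its centrioles many times, with help from Ccno and Deup1, and switches on cilium genes through Foxj1, Rfx2 and Rfx3. Myb acts early in the formation of such a cell. The efferent ducts are lined by multiciliated cells, which stir the luminal fluid, and by nonciliated cells, which take it up. The caput epithelium consists mainly of principal cells, whose stereocilia are long microvilli and not cilia. Sperm flagella are built from many of the same axonemal proteins.

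Promoter sequence was set beside the members because Rfx factors, 2 of which are members, bind a site known as the X-box. A window from 250 bases before to 50 after the annotated start was given by RefSeq on GRCm38.p6 for 32 of the 38 measured members. The X-box half-site GTTGCC (on the other strand GGCAAC) was searched on both strands. It lay in the window of 16 of the 32 members, against 29 of 79 other motile cilia genes, 36.7%, and 14.7% of the 14453 measured genes with a window. Of all 32851 windows in the table, 12.5% held it. A forkhead core, TGTTTAC (on the other strand GTAAACA), lay in 2 of the 32 members, 6.25%, against 3.40% of measured genes. A match describes the letters only and is not evidence of binding. The stretches below are shown for a microtubule inner protein gene, a dynein light chain gene, a tektin gene, an Rfx gene and the centriole gene Ccno, around the matches upstream of the start. They are written along the gene's strand, with the half-site or its reverse complement in capitals.
Enkur (chr2:21205366-21205429, minus strand): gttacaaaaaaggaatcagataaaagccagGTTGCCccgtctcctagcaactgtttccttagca
Dynlrb2 (chr8:116504934-116504999, plus strand): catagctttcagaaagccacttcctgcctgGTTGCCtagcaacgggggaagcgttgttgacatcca
Tekt2 (chr4:126325695-126325814, minus strand): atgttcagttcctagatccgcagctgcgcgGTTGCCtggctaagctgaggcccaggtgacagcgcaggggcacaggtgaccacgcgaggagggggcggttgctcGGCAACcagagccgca
Rfx2 (chr17:56831089-56831154, minus strand): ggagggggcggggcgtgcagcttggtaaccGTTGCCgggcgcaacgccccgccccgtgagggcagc
Ccno (chr13:112987553-112987618, plus strand): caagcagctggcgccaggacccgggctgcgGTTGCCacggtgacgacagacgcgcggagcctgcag
The match began 34 bases before the start in Enkur, 51 in Dynlrb2, 96 and 22 in Tekt2, 116 in Rfx2 and 219 in Ccno.

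Background on each array was the highest of 27 Bacillus control probe sets and ran from 2.33 to 14.3 in intensity. On the 4 efferent duct vehicle arrays it was 8.09 to 14.3, and the log2 ratio of the actin 3′ to 5′ probe sets was 3.11 to 3.87. The 4 efferent duct hormone arrays had a background of 2.33 to 3.97 and an actin ratio of 0.913 to 1.93, so comparisons of hormone with vehicle in this tissue set arrays of unlike quality against each other. All caput arrays had actin ratios of 0.636 to 1.20. Efferent duct RNA was labelled with an amplification kit from 50 ng and caput RNA with another kit from 10 µg, so tissue and kit cannot be told apart. Caput principal cell markers summed to 71570 to 71950 on the caput sham arrays and 5557 to 9574 on the efferent duct sham arrays. All 10 were above background on both caput sham arrays and on efferent duct sham array 2, while Rnase10, Lcn9 and Adam28 were below it on efferent duct sham array 1. Nonciliated efferent duct markers summed to 7839 to 7845 on the efferent duct sham arrays, with Amn below background on the first and Cubn on the second, and 5478 to 5588 on the caput sham arrays, where Cubn was below it on both.

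In the efferent duct 36 of the 38 measured members were above background on all 8 arrays, and in the caput 30 were. For 25 members every efferent duct array read higher than every caput array, which held for 13.8% of all genes. The members below background on some efferent duct arrays were Spag6 and Cdc20b. In the caput these were joined by Rfx2, Dnah5, Dnah6, Zmynd10, Drc1 and Spag17. In sham animals 32 of the 38 members were higher in the efferent duct, where 23.4% of all genes were, and 0 were lower, where 31.0% of all genes were. Their median log2 difference was 2.26, against -0.30 over all genes. With quantile normalization these medians were 2.73 and -0.07, and 32 members were again higher. In a bulk sample fewer cells of a type and less RNA per cell cannot be told apart.

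**Figure D1:**
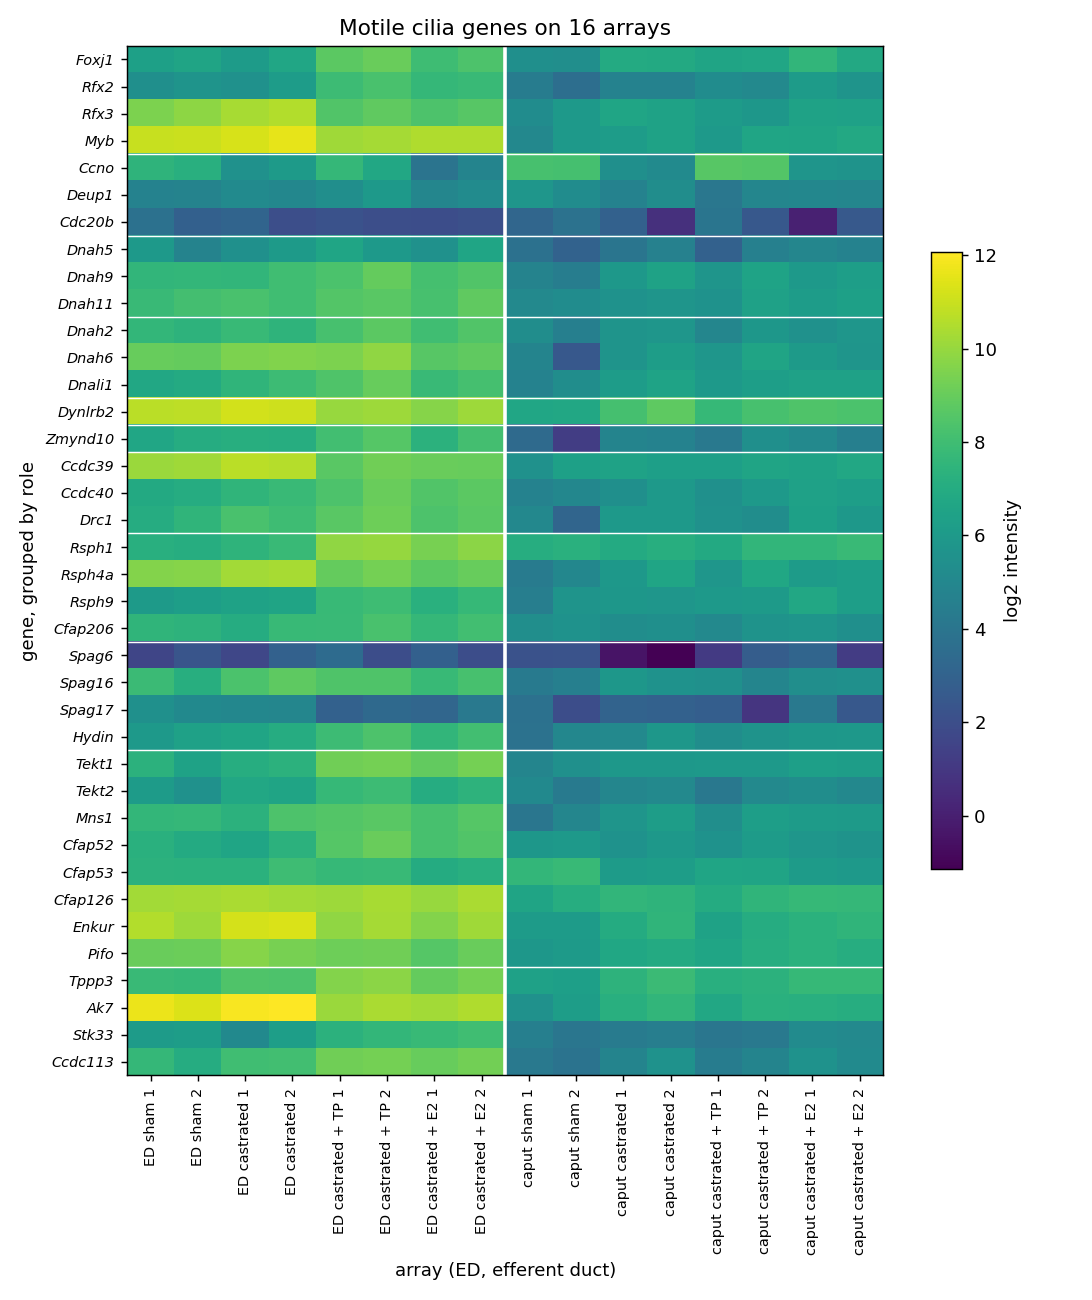
Log2 intensity (colour) of the 38 measured motile cilia genes (rows, grouped by role) on 16 arrays (columns, TP for testosterone propionate and E2 for estradiol). Most rows are brighter on the 8 efferent duct arrays, while Ccno and Cfap53 reach 287 to 294 and 193 to 215 in intensity in the sham caput, above their sham efferent duct readings.

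The 4 transcription factor genes were all higher in the sham efferent duct. Foxj1, the main switch for motile cilium genes, read 82.4 and 96.7 there and 43.0 and 42.1 in the sham caput, a log2 difference of 1.07 (SE 0.27, adjusted p = 0.00672). Myb, which acts early in multiciliated cell formation, read 1994 and 2069 against 31.9 and 61.2, a difference of 5.52 (SE 0.31, adjusted p = 9.00e-07). The tissues did not overlap for either gene. Rfx3 read 707 and 917 in the duct and 39.4 and 61.0 in the caput, a difference of 4.04 (SE 0.24, adjusted p = 1.18e-06). Rfx2 read 44.1 and 51.8 against 21.1 and 12.2, a difference of 1.58 (SE 0.29, adjusted p = 0.00122). The second of the caput readings of Rfx2 was below background. Both Rfx genes also had dimmer probe sets of the opposite sign, and the mean over all probe sets gave -0.57 for Rfx2 and 0.66 (adjusted p = 0.264) for Rfx3.

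Large tissue differences were also seen in genes of several other roles. Ak7, an adenylate kinase of the ciliary axoneme, read 3242 and 2705 in the sham efferent duct and 46.0 and 73.4 in the sham caput, 51.0-fold higher with a log2 difference of 5.67 (SE 0.26, adjusted p = 4.55e-07). Dnah6, an inner arm dynein heavy chain, read 513 and 489.6 against 28.7 and 5.60, a difference of 5.31 (SE 0.60, adjusted p = 5.15e-05). The second caput value was below background and the caput arrays differed widely from each other. Rsph4a, a radial spoke head protein, read 780.3 and 811 against 20.3 and 31.0, a difference of 4.99 (SE 0.34, adjusted p = 2.30e-06). Zmynd10, needed to assemble dynein arms before they enter the cilium, read 101 and 129 in the duct. Its caput readings of 10.5 and 2.41 were below background, so it was at least 9.96-fold higher in the duct (adjusted p = 1.97e-04). Ak7, Myb, Dnah6 and Rsph4a had the largest differences among members above background in both sham tissues on at least 1 array.

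The probe sets with the highest readings in the sham efferent duct were those of Ak7, Myb, Dynlrb2, Enkur and Cfap126, which is an order of probe sets and not of transcripts. Dynlrb2, a dynein light chain, read 1653 and 1736 in the duct and 103 and 109.9 in the caput. Enkur, a microtubule inner protein, read 1518 and 1136 in the duct and 69.2 and 68.5 in the caput. Cfap126, another protein of the doublet lumen, read 1191 and 1235 in the duct and 93.6 and 135 in the caput. All 3 were above background on every array of both tissues, and none overlapped between the tissues. The log2 difference had a 95% interval of 3.46 to 4.53 in Dynlrb2 (adjusted p = 1.19e-06), and was 4.25 (adjusted p = 1.90e-06) in Enkur and 3.43 (adjusted p = 1.95e-06) in Cfap126.

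By role, all 3 measured outer arm heavy chains (Dnah5, Dnah9, Dnah11; log2 differences 1.98 to 2.98) and all 3 inner arm members (Dnah2, Dnah6, Dnali1; 1.84 to 5.31) were higher in the sham duct. The same held for all 3 genes of the molecular ruler and nexin-dynein regulatory complex (Ccdc39, Ccdc40, Drc1; 2.10 to 4.17). Of the 4 radial spoke genes 3 were higher, of the 4 central pair genes 3, and of the 8 tektin and inner protein genes 7. Mns1, Pifo, Tekt1, Cfap52 and Tekt2 were among the latter, with differences of 3.16, 3.13, 1.73, 1.18 and 1.15. Hydin and Spag17, parts of the central pair apparatus, differed by 1.82 and 2.42, and Spag16 of the same role by 3.13. With a gene's probe sets averaged, 26 members were higher, and Hydin, Spag17, Spag16 and Dnah2 lost their calls, at 0.97, 0.51, 0.25 and 1.46 (adjusted p = 0.328, 0.573, 0.675 and 0.134), as did Rfx2 and Rfx3. Spag17 also lost its call without 3 of the 4 sham arrays, at 1.51 without caput array 2. Rsph9 fell under the threshold without 3 of them, at 0.47 without caput array 1, and Tekt2 and Dnah5 without duct array 1 or caput array 2, with Tekt2 at 0.73 without the latter. Stk33, Ccdc113, Tppp3 and the spoke genes Cfap206 and Rsph9 differed by 1.85, 3.30, 1.40, 1.96 and 1.07. Dnaic1, listed on the array under the older symbol of Dnai1, read 55.5 ± 19.4 (SD, n = 2) in the sham duct and 12.6 ± 2.80 in the sham caput, a difference of 2.11 (adjusted p = 1.45e-04).

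The other 6 members did not pass the test between the sham tissues, and the 3 centriole amplification genes were among them. Ccno, a cyclin-like protein needed to copy centrioles in multiciliated cells, read 177 and 145 in the duct and 294 and 287 in the caput, a log2 difference of -0.86 (SE 0.34, adjusted p = 0.0587). Deup1, the scaffold of the deuterosome on which centrioles are copied, read 26.3 and 27.0 against 56.5 and 39.5, a difference of -0.83 (adjusted p = 0.0585). In both genes each caput array read higher than each duct array. Ccno passed the test, lower in the duct, without the 40% dimmest genes and with an intensity trend in the variance prior (adjusted p = 0.0265 and 0.0318), and Deup1 in the fit with a replicate block (adjusted p = 0.0482). Cdc20b, transcribed in multiciliated cells, read 13.8 and 7.55 against 9.40 and 14.2, with 1 of the 4 arrays above background. Cfap53, a microtubule inner protein, read 165 and 158 against 193 and 215, a difference of -0.34 (adjusted p = 0.198). Rsph1, a radial spoke head protein, read 148 and 135 against 138 and 151, a difference of -0.03 with a 95% interval of -0.57 to 0.51. Cdc20b, Cfap53 and Rsph1 had intervals that reach both sides of 0. Spag6, a central pair protein, was below background on all 4 sham arrays, at 3.05 and 5.09 in the duct and 4.52 and 4.66 in the caput.

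**Figure D2:**
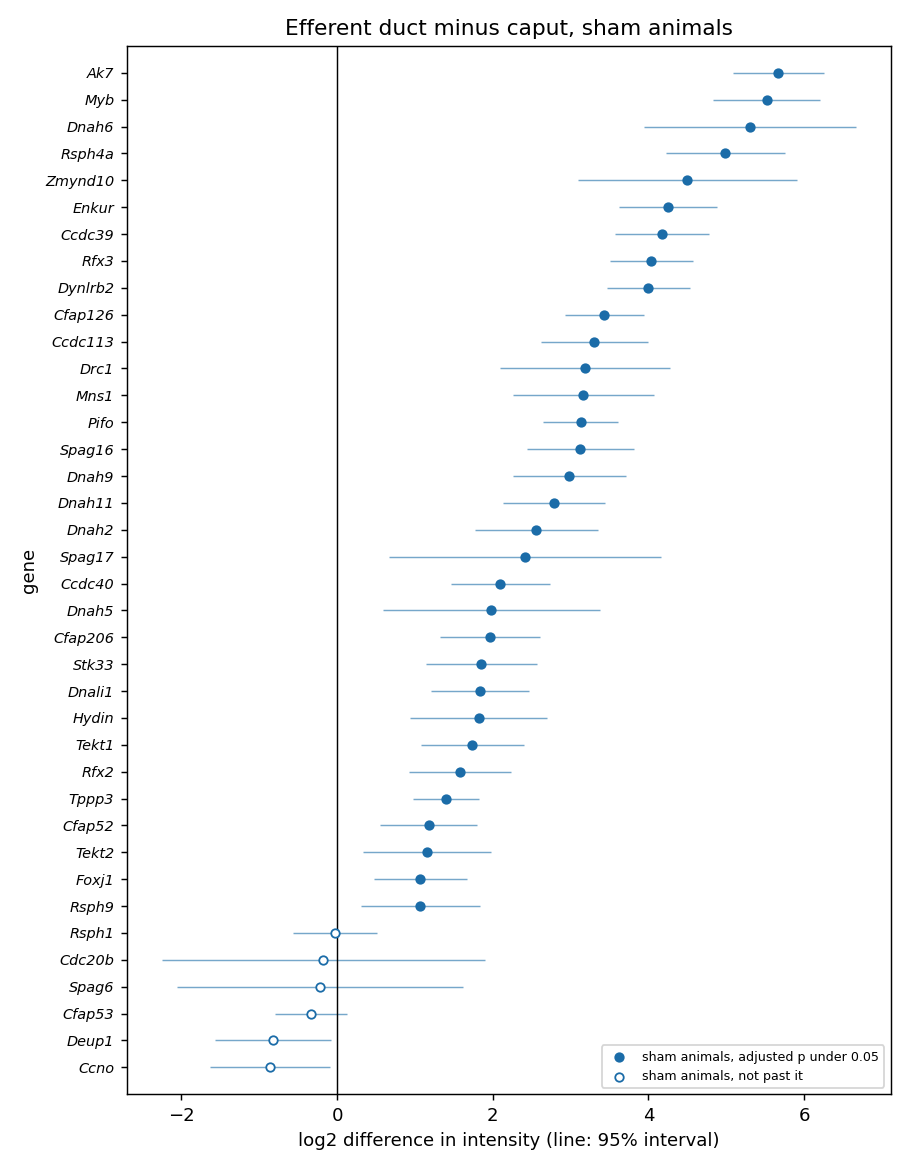
Log2 difference in intensity between sham efferent duct and sham caput (x axis) for each measured motile cilia gene (y axis), with 95% intervals as lines, from 2 arrays a tissue. Filled points mark the 32 genes past an adjusted p of 0.05, all to the right of 0, with Ak7 at 5.67, while Ccno and Deup1 lie lowest at -0.86 and -0.83.

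Sperm and germ cell markers were measured beside these genes, since sham ducts hold sperm. The 13 measured summed to 700 to 722 on the efferent duct sham arrays, with Hspa1l below background on both, and to 2062 to 8212 on the caput sham arrays. Their part in the sham tissue differences was not tested. After castration they summed to 114 to 129 in the duct, where 9 of 13 were below background on both arrays, and to 116 to 163 in the caput, where 7 were. In that setting 30 of the 38 members were higher in the efferent duct than in the caput, where 22.2% of all genes were, and 0 were lower, where 33.0% were. The median was 1.90. One of the 30, Spag6, was below background on all 4 arrays and carries no fold. Ccno read 45.7 and 66.9 in the castrated duct and 43.9 and 36.2 in the castrated caput, a difference of 0.47 (adjusted p = 0.274). Cfap53 read 155 and 254 against 70.2 and 72.9 and was higher in the duct, by 1.47 (SE 0.21, adjusted p = 2.03e-04). Foxj1 was the 1 member with a negative value, -0.51 (adjusted p = 0.131), since its caput level was then 123 and 118 and its duct level 70.1 and 102. The other members that did not pass were Deup1, Cdc20b, Dnah5, Rsph1, Rsph9 and Spag17.

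Castration changed 9 of the 38 members in the caput. The 7 that rose, against 7.90% of all genes, were Dynlrb2, Dnah9, Ak7, Foxj1, Spag16, Dnali1 and Tppp3. The 2 that fell, against 6.12% of all genes, were Ccno and Cfap53. The median difference of the members was 0.86, against 0.06 over all genes, and 30 of 38 were positive, against 54.1% of all genes. For 26 members both castrated arrays read higher than both sham arrays, which held for 35.1% of all genes, and for 4 both read lower, which held for 27.6%.

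Foxj1 read 43.0 and 42.1 in the sham caput and 123 and 118 in the castrated caput, 2.84-fold higher with a log2 difference of 1.50 (SE 0.24, adjusted p = 0.0215). Dynlrb2 went from 103 and 109.9 to 292 and 441, a difference of 1.76 (SE 0.26, adjusted p = 0.0181). Dnah9, an outer arm heavy chain, went from 27.1 and 22.3 to 59.0 and 87.4, a difference of 1.55 (SE 0.33, adjusted p = 0.0411). In each of the 3 genes both castrated arrays lay above both sham arrays, with the castrated pair of Dynlrb2 the furthest apart. Ak7 rose from 46.0 and 73.4 to 148 and 190.3, by 1.53 (SE 0.29, adjusted p = 0.0325). Dnali1, an inner arm light chain, rose from 25.8 and 41.0 to 71.0 and 92.1, by 1.31 (SE 0.27, adjusted p = 0.0383). Tppp3, a tubulin-binding protein abundant in multiciliated cells, rose from 85.6 and 80.1 to 168 and 236, by 1.26 (SE 0.19, adjusted p = 0.0181). Even after these rises each of the 3 read under its efferent duct level, which in castrated animals was 3923 and 4310 for Ak7, 183 and 244 for Dnali1 and 346 and 333 for Tppp3. Spag16, a central pair protein, rose from 18.7 and 23.5 to 57.4 and 48.1, by 1.32 (SE 0.25, adjusted p = 0.0320). Its 3 other probe sets, at mean intensities of 3.30 to 7.30, had the opposite sign, and the mean over all 4 gave -0.52.

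Members that missed the threshold included some with larger differences and wider spread. Zmynd10 was above background on both castrated arrays, at 27.8 and 26.2, at least 2.36-fold over sham (adjusted p = 0.101). Dnah6 read 52.3 and 73.4 after castration, a difference of 2.29 (adjusted p = 0.120). Rsph4a read 59.5 and 97.0, a difference of 1.60 (adjusted p = 0.0651). Drc1, of the nexin-dynein regulatory complex, and Mns1 differed by 1.90 (adjusted p = 0.0978) and 1.50 (adjusted p = 0.0694). Enkur and Pifo lay just outside the threshold, at 1.13 (adjusted p = 0.0501) and 0.89 (adjusted p = 0.0501). On their brightest probe sets the other transcription factor genes also had both castrated arrays above both sham arrays, without passing the test. Rfx2, Rfx3 and Myb each also had a probe set of the opposite sign, as did Dnah2 and Spag17. Rfx3 read 99.9 and 89.4 after castration, a difference of 0.95 (adjusted p = 0.0606). Myb read 71.8 and 89.1, a difference of 0.85 (adjusted p = 0.205), and Rfx2 26.3 and 26.2, a difference of 0.71 (adjusted p = 0.181). Cfap126 read 186 and 173, a difference of 0.68 (adjusted p = 0.142). Rsph1, at 122 and 139.9, differed by -0.14, and the groups overlapped for it, for Cfap52, Cfap206, Stk33, Tekt2, Ccdc39, Spag17 and Deup1. Dnah2, Dnah5, Dnah11, Ccdc40, Ccdc113, Rsph9, Hydin and Tekt1 had differences of 0.47 to 1.15, with each castrated array above each sham array.

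Ccno and Cfap53 went the other way. Ccno fell from 294 and 287 to 43.9 and 36.2, 7.29-fold lower with a log2 difference of -2.87 (SE 0.14, adjusted p = 0.00232). Cfap53 fell from 193 and 215 to 70.2 and 72.9, 2.85-fold lower with a difference of -1.51 (SE 0.12, adjusted p = 0.00507). The 2 arrays of each group were close to each other in both genes. Deup1 read 25.8 and 40.1 after castration, a difference of -0.56 (adjusted p = 0.372). Cdc20b read 7.90 and 1.60 and Spag6 0.738 and 0.451, with 3 of these 4 readings under background, so no fold is given.

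Leaving out castrated array 1, castrated array 2, sham array 1 or sham array 2 left 4, 2, 4 and 3 members called, and Ccno and Cfap53 were among them each time. Of the 7 risers Dynlrb2 and Tppp3 kept their calls without castrated array 1, and none of the 7 kept it without any of the other 3 arrays. Without sham array 1 Dnah6 and Drc1 were called, and without sham array 2 Tekt1. With the mean of all probe sets Dnah9, at 0.85, and Dnali1, at 1.06, lost their calls (adjusted p = 0.325 and 0.0767). Leaving out the 40% dimmest genes, an intensity trend in the variance prior, or a single fit of all 16 arrays gave 18, 18 and 19 called members, 16 of them higher each time. The shares of all genes called in these 3 fits are not given here, and those of the main fit do not apply to them. Rfx3, Enkur, Pifo, Dnah6, Drc1 and Mns1 were among those called without the dimmest genes and with the trend. Caput principal cell markers summed to 71570 to 71950 in sham and 10220 to 10570 in castrated animals, where Lcn9 was below background. Nonciliated efferent duct markers summed to 3183 to 3277 in the castrated caput, lower than in sham, with Cubn and Amn below background. Of these 10 markers 1 rose and 1 fell at the threshold, with 3 positive and 7 negative differences. Pdzk1 read 2558.5 and 2620.7 in sham and 452 and 295 in castrated animals. Esr1 read 567 and 511 in sham and 903 and 1065.5 in castrated animals. Sperm markers were lower as given above. Of 6 clear and narrow cell markers 4 rose, Atp6v0a4, Atp6v1b1, Kit and Foxi1, and 1 fell, Rhcg, and their sum was 2265 to 2403 in sham, with Atp6v0a4 and Slc4a9 below background, and 1316 to 1501 in castrated animals. Of 5 basal cell markers 1 rose, of 8 macrophage markers 1 rose, and of 6 fibroblast markers 1 rose and 2 fell. The part of these shifts in the rises and falls of the members was not tested.

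**Figure D3:**
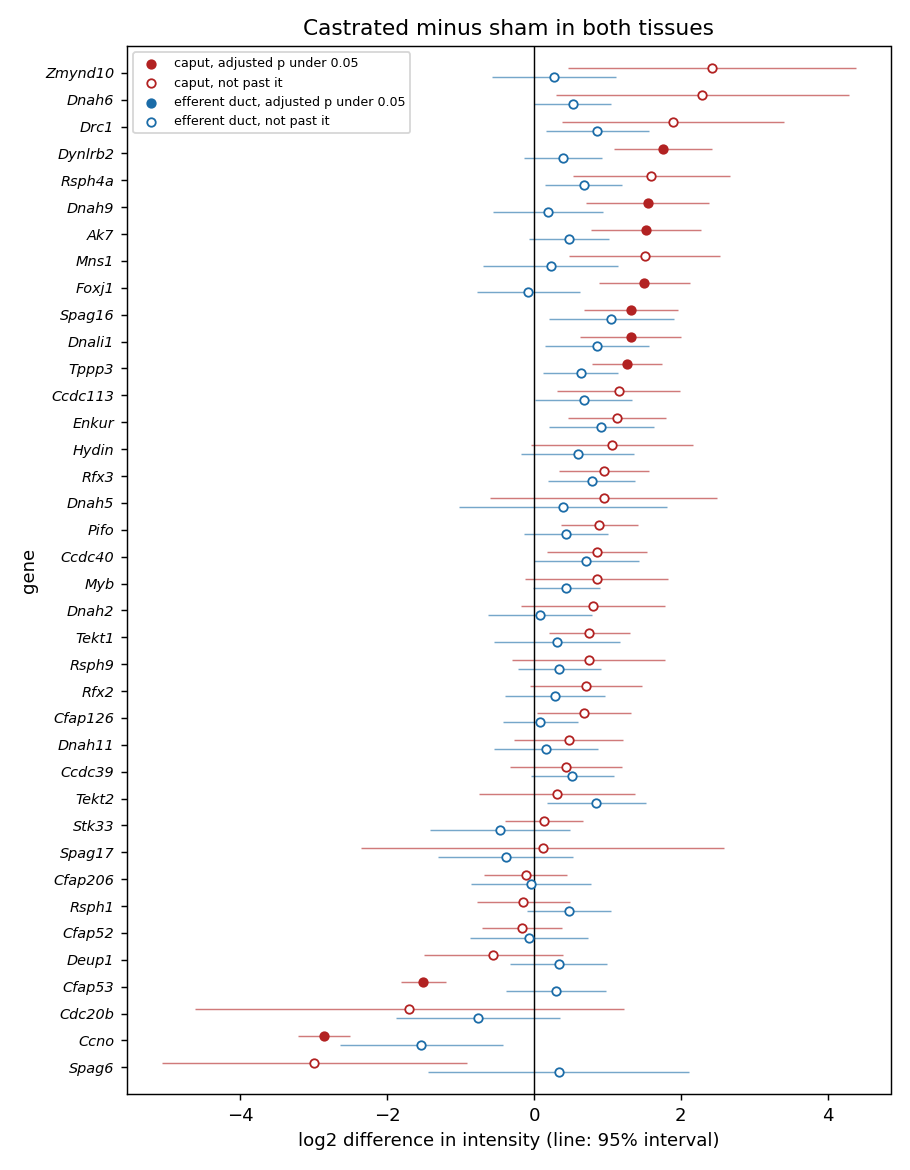
Log2 difference in intensity between castrated and sham animals (x axis) for each measured motile cilia gene (y axis), in the caput (red) and the efferent duct (blue), with 95% intervals as lines, from 2 arrays a group. Filled points mark an adjusted p under 0.05, which 9 genes passed in the caput (7 above and 2 below 0) and 0 in the efferent duct.

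In the efferent duct 0 of the 38 members passed the test of castrated against sham, where 0.291% of all genes did. At an unadjusted p under 0.05, 10 were higher, against 7.27% of all genes, and 1 was lower, against 8.55%. Both castrated arrays read higher than both sham arrays for 21 members, which held for 24.5% of all genes, and lower for 2, which held for 23.0%. The members' median was 0.37, against 0.02 over all genes, with 31 of 38 positive, against 51.3% of all genes.

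On its brightest probe set Spag16 had the largest positive difference, from 236 and 142 in sham to 321 and 451 in castrated ducts, 1.05 (SE 0.34, adjusted p = 0.238). Its probe sets differed in sign, as did those of Hydin and Spag17. Enkur read 1518 and 1136 in sham and 2397 and 2555 in castrated ducts, 0.91 (SE 0.29, adjusted p = 0.230). Rfx3 read 1295 and 1483 after castration, 0.78 (SE 0.24, adjusted p = 0.221). In all 3 both castrated arrays read above both sham arrays, and with an intensity trend in the variance prior Enkur and Rfx3 were called (adjusted p = 0.0433 and 0.0470). Dnali1, Drc1 and Tekt2 differed by 0.86, 0.86 and 0.85, and Rsph4a by 0.68, none of them past the threshold. Ak7, Myb, Dynlrb2, Dnah6, Dnah9 and Tppp3 differed by 0.47, 0.44, 0.39, 0.53, 0.19 and 0.63. Foxj1 read 70.1 and 102 after castration, a difference of -0.08 with a 95% interval of -0.78 to 0.62. Ccno had the lowest value, -1.54 (SE 0.44, adjusted p = 0.210), from 177 and 145 to 45.7 and 66.9. Both castrated arrays read below both sham arrays for Ccno and Spag17, and in a single fit of all 16 arrays Ccno was called (adjusted p = 0.0338). Cdc20b, at 8.73 and 4.15, and Spag6, at 3.18 and 7.78, were below background on the castrated arrays as on the sham arrays. Deup1 read 36.1 and 31.2, Rsph1 174 and 222 and Cfap126 1367 and 1206, with differences of 0.33, 0.48 and 0.08. Caput principal markers summed to 83.0 to 523 in the castrated ducts, with 4 of 10 below background on both arrays, and nonciliated markers to 4735 to 5201, with Amn below it on both. Their part in these values was not tested.

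Both tissues had positive castration differences in 27 members, against 31.9% of all genes, and 28 members had the larger difference in the caput. Only the difference between the castration effects tests this, and it passed for 1 member, against 3.23% of all genes. That member was Cfap53, which fell in the caput and read 155 and 254 in the castrated duct against 165 and 158 in the sham duct, a difference of 0.30 there. Its castration effect was higher in the duct than in the caput by 1.81 (SE 0.29, adjusted p = 0.0167). The call was lost when any 1 of the 4 caput arrays was left out (adjusted p = 0.0530 to 0.0574) and with a replicate block (adjusted p = 0.101), with values of 1.73 to 1.89 in those fits. Without caput sham array 1 Dnah6 was called in its place, and without efferent duct castrated array 2 Foxj1 was called beside it. Foxj1 and Dynlrb2 had differences of -1.58 (adjusted p = 0.0560) and -1.36 (adjusted p = 0.0631), and both passed under 3 alternatives: without the dimmest genes, with the intensity trend and with intensities under 16 set to 16.

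**Figure D4:**
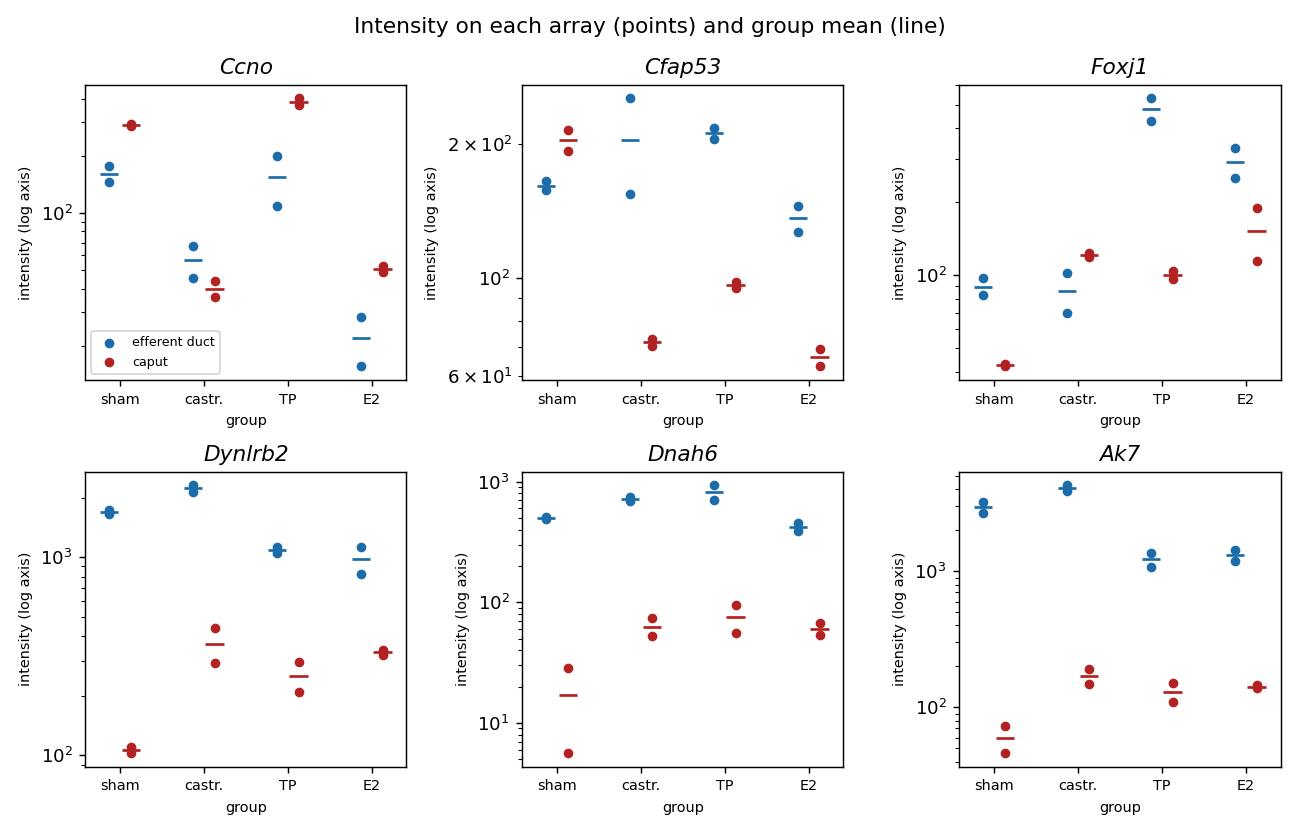
Intensity on each array (points, log axis) and mean of each group (lines) for 6 motile cilia genes in the efferent duct (blue) and caput (red), in sham, castrated (castr.), castrated with testosterone propionate (TP) and castrated with estradiol (E2) animals. In the caput Ccno is at 287 to 294 in sham, 36.2 to 43.9 in castrated, 369 to 401 in testosterone propionate and 49.2 to 52.7 in estradiol animals.

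Testosterone propionate raised 1 member in the caput of castrated animals, against 1.02% of all genes, and lowered 0, against 0.649%. The 1 was Ccno, which went from 43.9 and 36.2 to 401 and 369, 9.66-fold higher with a log2 difference of 3.27 (SE 0.14, adjusted p = 0.00496). Both treated arrays read above both sham arrays. The call was lost without either treated array (adjusted p = 0.0545 and 0.0511), with log2 differences of 3.13 to 3.41 over the arrays left out in turn. Sperm markers summed to 134 to 136 on these arrays, against 116 to 163 on the castrated vehicle arrays. The members' median difference was -0.03, against -0.05 over all genes. Cfap53 read 97.7 and 95.1, above both castrated arrays and under both sham arrays, a difference from castrated of 0.43 (adjusted p = 0.149). It was called without the 40% dimmest genes (adjusted p = 0.0476).

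The 7 members that rose with castration did not pass a test in the other direction with the hormone. Foxj1 read 96.2 and 104 with testosterone propionate, a difference of -0.27 with a 95% interval of -0.89 to 0.34. Dynlrb2 read 209 and 297, a difference of -0.53 with an interval of -1.20 to 0.14. Ak7 read 109 and 151 and Dnah9 53.8 and 91.1. Their differences were -0.38 and -0.04. All 7 had negative values, and each of their treated arrays read above both sham arrays. Spag16 read 45.1 and 29.3, Dnali1 62.1 and 76.8 and Tppp3 146 and 163, with differences of -0.53, -0.23 and -0.37. Rfx2 read 39.3 and 34.1, Rfx3 70.0 and 56.9 and Myb 64.0 and 100.2, with differences of 0.48, -0.58 and 0.00. Over the 38 members 17 had positive and 21 negative values. Enkur read 89.8 and 131, Cfap126 127 and 184, Dnah6 55.9 and 94.4 and Rsph4a 54.8 and 105. Zmynd10 read 18.5 and 42.5, Rsph1 118 and 187 and Deup1 16.8 and 29.8, all above background. Cdc20b, at 15.8 and 5.63, and Spag6, at 2.14 and 6.78, had 1 of these 4 readings above it.

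Estradiol changed 0 members in the caput at the threshold, where 0% of all genes passed. At an unadjusted p under 0.05 there were 4 higher members, against 7.80% of all genes, and 0 lower, against 6.69%. The 4 were Rfx2, Rsph1, Stk33 and Spag6, the last of them above background on 1 of these 4 arrays. Rfx2 read 26.3 and 26.2 in castrated and 68.1 and 51.3 in estradiol animals, a difference of 1.17 (SE 0.30, adjusted p = 0.212). Ccno read 52.7 and 49.2 with estradiol, a difference of 0.35 (SE 0.14, adjusted p = 0.349). Cfap53 read 69.3 and 63.2, a difference of -0.11 with a 95% interval of -0.42 to 0.19. Neither gene read within its sham range. Foxj1 read 188 and 114, Dynlrb2 341 and 322 and Ak7 146 and 138, with differences of 0.28, -0.12 and -0.24. Dnah9 read 62.8 and 76.6, Spag16 41.7 and 45.2, Dnali1 87.0 and 86.5 and Tppp3 211 and 209. The members' median difference was 0.20, against 0.01 over all genes. Rfx3 read 87.2 and 84.0, Myb 96.1 and 115, Enkur 159.9 and 184, Cfap126 213 and 203 and Rsph4a 70.1 and 76.6. Rsph1 read 187 and 226, Zmynd10 34.2 and 23.9, Dnah6 67.3 and 53.2 and Deup1 31.0 and 30.1. Cdc20b read 1.04 and 5.75 and Spag6 8.85 and 2.31.

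Set directly against estradiol in the caput, testosterone propionate gave 1 higher member, against 1.12% of all genes, and 0 lower, against 1.00%. It was again Ccno, 7.56-fold higher with a log2 difference of 2.92 (SE 0.14, adjusted p = 0.00753). Leaving out any of the 4 arrays compared left 0 members called, with differences for Ccno of 2.86 to 2.98. Of the 38 members 7 had a positive difference, against 44.1% of all genes, and the median was -0.38, against -0.06 over all genes. Stk33, a kinase, was the nearest to the threshold among the negative ones, at -1.04 (adjusted p = 0.0902). Cfap53 differed by 0.54 (adjusted p = 0.107), and was called without the dimmest genes and with intensities under 16 set to 16 (adjusted p = 0.0246 and 0.0365).

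In the efferent duct the 2 hormones were compared on arrays of like quality. Again 0 members passed, where 0% of all genes did. At an unadjusted p under 0.05 there were 5 higher with testosterone propionate, against 4.03% of all genes, and 0 lower, against 4.03%. The groups did not overlap for 15 members higher with testosterone propionate, against 22.2% of all genes, and 2 lower, against 20.4%. A positive difference was seen in 33 of 38 members, against 51.2% of all genes, with a median of 0.27 against 0.01.

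Ccno had the largest of these differences, with 200.1 and 109 after testosterone propionate and 15.6 and 28.5 after estradiol, 2.81 (SE 0.44, adjusted p = 0.203). It was called without the dimmest genes, with the intensity trend and in a single fit of all 16 arrays (adjusted p = 0.0245, 0.0112 and 0.00983). Dnah6 read 704 and 936 against 392 and 452, 0.95 (SE 0.21, adjusted p = 0.327), and was called with the trend (adjusted p = 0.0368). Foxj1 read 427 and 531 against 250.1 and 332, 0.73 (SE 0.28, adjusted p = 0.604). The groups of all 3 were apart on these arrays. Dnali1 and Tppp3 were the other 2 at an unadjusted p under 0.05, at 0.71 and 0.57. Sperm markers summed to 190 to 1750 on the testosterone propionate arrays and 224 to 415 on the estradiol arrays, and caput principal markers to 351 to 2788 and 158 to 1240. The part of either in these values was not tested.

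In Ccno the readings of both tissues had 1 order: sham and testosterone propionate arrays were high, castrated and estradiol arrays low. The 4 high efferent duct arrays ran from 109 to 200.1 and the 4 low ones from 15.6 to 66.9. In the caput the corresponding ranges were 287 to 401 and 36.2 to 52.7. The high and low arrays did not overlap in either tissue, though in the duct no comparison between them within like arrays passed the test. In the duct the high and low sets each held vehicle and hormone arrays, which were of unlike quality. Cfap53 had the same order in the caput. Its testosterone propionate arrays, at 97.7 and 95.1, lay nearer the castrated ones (70.2 and 72.9) than the sham ones (193 and 215). The share of all genes with this order was not counted.

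**Figure D5:**
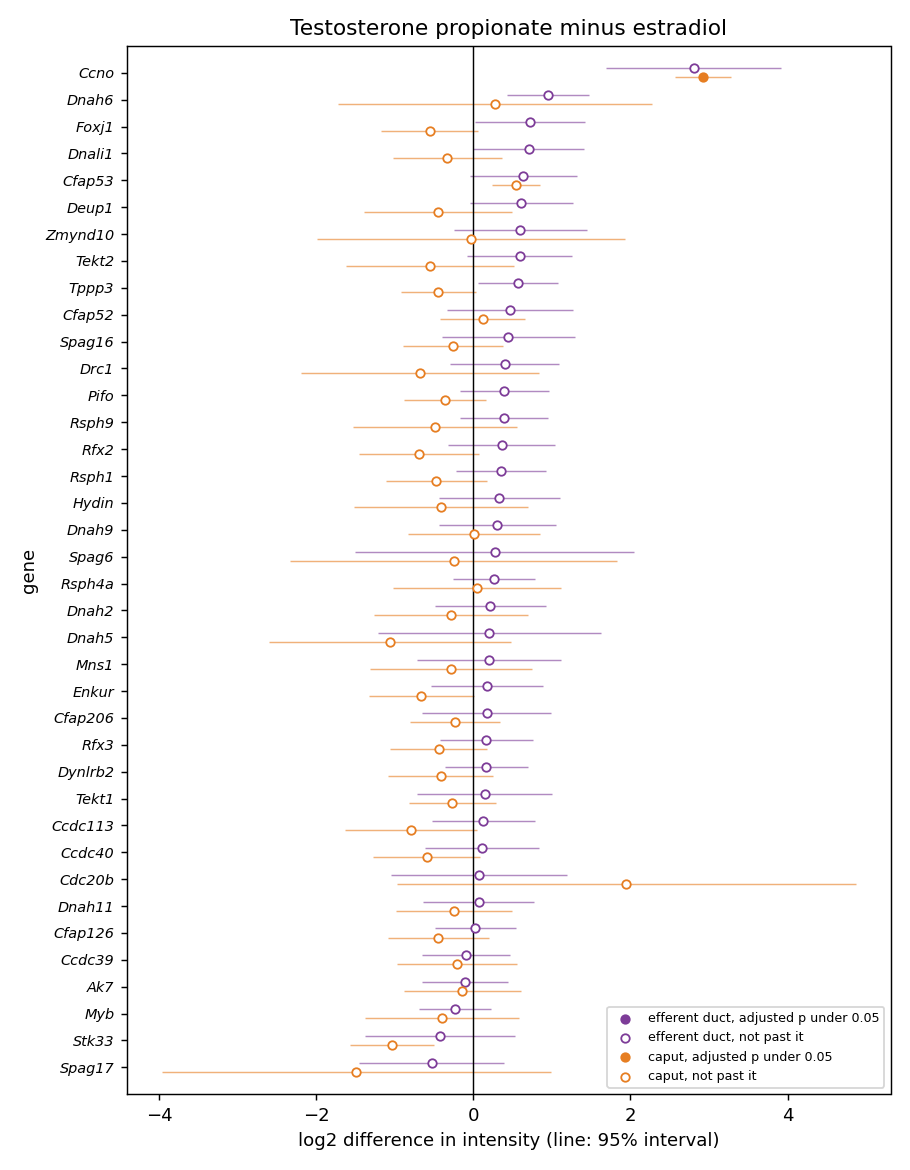
Log2 difference in intensity between testosterone propionate and estradiol in castrated animals (x axis) for each measured motile cilia gene (y axis), in the efferent duct (purple) and the caput (orange), with 95% intervals as lines, from 2 arrays a group. Ccno is highest in both tissues, at 2.81 and 2.92, and is the 1 filled point (adjusted p under 0.05), in the caput.

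Hormone against castrated vehicle in the efferent duct crossed the unlike array sets, and all genes together shifted by a median of 0.23 with testosterone propionate and 0.25 with estradiol. With quantile normalization these shifts were -0.03 and -0.04. With testosterone propionate 14 members were higher, against 23.2% of all genes, and 8 were lower, against 12.3%. With estradiol 9 were higher, against 20.0%, and 8 were lower, against 10.7%. The 2 comparisons share the castrated arrays. Quantile normalization gave 11 called members in each, 7 higher and 4 lower with testosterone propionate and 5 higher and 6 lower with estradiol. Ccno, Cfap53 and Spag17, lower with estradiol, were not among the members called before this normalization. Leaving out estradiol array 1 left 0 called in the second comparison, while estradiol array 2 left 8 and castrated array 1 left 9. In the first, leaving out testosterone propionate array 1, array 2 or castrated array 1 left 10, 12 and 13.

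The higher members with testosterone propionate were Foxj1, Rsph1, Rfx2, Tekt1, Cfap52, Stk33, Rsph9, Hydin, Tppp3, Zmynd10, Ccdc113, Tekt2, Ccdc40 and Dnali1, and the lower ones Rfx3, Ak7, Spag17, Ccdc39, Enkur, Myb, Rsph4a and Dynlrb2. With estradiol the higher ones were Stk33, Rsph1, Tekt1, Rfx2, Foxj1, Cfap52, Ccdc113, Rsph9 and Tppp3, and the lower ones Rfx3, Ak7, Ccdc39, Rsph4a, Enkur, Dynlrb2, Myb and Dnah6. Under quantile normalization 11 of the 22 and 9 of the 17 lost their calls, Myb, Dynlrb2, Enkur, Ak7 and Rsph9 in both comparisons. The transcription factor genes split in direction when read from their brightest probe sets. Foxj1 read 427 and 531 with testosterone propionate and 250.1 and 332 with estradiol, against 70.1 and 102 in castrated ducts, differences of 2.50 and 1.77 (adjusted p = 0.00534 and 0.0105). Rfx2 read 241 and 305 with testosterone propionate and 201 and 221 with estradiol, against 47.1 and 71.9, differences of 2.22 and 1.86, though the mean of its probe sets gave 0.57 and -0.34 (adjusted p = 0.500 and 0.718). Rfx3 read 364 and 457 and, with estradiol, 329 and 401, against 1295 and 1483, differences of -1.76 and -1.93. The mean of its probe sets gave -0.60 and -0.85 (adjusted p = 0.424 and 0.298). Myb read 1172 and 1269 and, with estradiol, 1431 and 1439, against 2468 and 3075, differences of -1.18 and -0.94, which were -0.24 and -0.11 with quantile normalization (adjusted p = 0.380 and 0.697). Foxj1 had a single probe set, so averaging probe sets could not change its value. Under quantile normalization Foxj1, Rfx2 and Rfx3 kept their calls with both hormones. The estradiol calls of Foxj1 and Rfx2 were lost without either estradiol array, and that of Rfx3 without estradiol array 1. Foxj1 and Rfx2 were thus higher and Rfx3 and Myb lower on all 4 hormone arrays than on all 4 vehicle arrays, sham included. The same held upward for Rsph1, Zmynd10, Dnah9 and Tppp3 and downward for Ak7, Dynlrb2 and Rsph4a among the others whose values are given here. The share of all genes apart in this way between the 2 array sets was not counted. Dnah9 also had a probe set of the opposite sign with either hormone. Rsph1 read 941 and 1013 with testosterone propionate and 665 and 884 with estradiol, against 174 and 222 in castrated ducts. Ak7 read 1085 and 1362 and, with estradiol, 1188 and 1439. Dynlrb2 read 2314 and 2140 in castrated ducts and 826 to 1132 over the 4 hormone arrays, and Rsph4a 1231 and 1314 against 429 to 644. Genes of 1 structure, such as the spoke genes Rsph1 and Rsph4a, thus read in opposite directions across the array sets. Enkur read 788 to 1233 and Cfap126 1063 to 1346 over the 4 hormone arrays. Zmynd10 read 165 to 391, Dnah9 285 to 490.1, Dnali1 227 to 505 and Tppp3 486 to 869.5 there, and Spag16 214 to 347. Cfap53 read 206 and 218 with testosterone propionate and 127 and 145 with estradiol, with the hormone groups apart. Deup1 read 30.8 to 64.4 over the 4 arrays. Cdc20b read 3.88 to 4.49 and Spag6 3.88 to 11.1, above the lower background of these arrays. Vehicle and hormone arrays also differed in actin ratio and background as given above. The highest intensity on an array was 14455.5 to 19966.8 on vehicle arrays and 3218 to 4517 on hormone arrays. The higher members with testosterone propionate had castrated duct means of 55.5 (Stk33) to 339 (Tppp3). The lower ones had means of 1273 (Rsph4a) to 4116 (Ak7), apart from Spag17 at 30.5. The part of signal range in these directions was not tested. Of 8 macrophage markers 6 were higher with testosterone propionate, with a median of 1.84, and 5 with estradiol, with a median of 1.85. Their sum was 2855 to 4428 in castrated ducts, 4655 to 6703 with testosterone propionate and 4570 to 7177 with estradiol. Of 6 fibroblast markers 4 were higher and 1 lower with either hormone. The part of these shifts in the members' values was not tested.

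Other genes of the cilium were measured with the members. Of 137 other motile cilia genes named, 93 were measured, and 60 were higher and 9 lower in the sham efferent duct, with a median of 1.78, where 23.4% of all genes were higher and 31.0% lower. Cfap47, Iqub and Cfap61 were below background on both sham caput arrays, so they were at least 3.73-fold, 14.9-fold and 5.03-fold higher in the duct. Of those above background on all 4 arrays Cfap300 and Fam183b had the largest differences, at 5.04 and 4.91. Of 30 intraflagellar transport genes, which carry cargo along the growing cilium, 16 were higher and 6 lower, with a median of 0.58. Traf3ip1, Ift80 and Ift140 led them, at 3.74, 3.42 and 2.33. After castration in the caput 10 of the 93 rose and 2 fell, against 7.90% and 6.12% of all genes. Capsl at 1.56 (adjusted p = 0.0395) and Nek5 at 1.54 (adjusted p = 0.0431) had the largest rises of those above background on all 4 arrays. Cfap61, below it in sham, was at least 1.02-fold higher (adjusted p = 0.0484). The falls were Spata18, also in the sperm list and below background in castrated animals, at least 11.9-fold lower (adjusted p = 0.0424), and Ropn1l, a protein of sperm flagella and cilia, at -1.38 (adjusted p = 0.0332). Of the 30 transport genes 7 rose and 0 fell, led by the kinesin motor gene Kif3a at 1.07 (adjusted p = 0.0145). In the castrated duct 0 of either list passed, and 80 of 93 and 26 of 30 had positive values, against 51.3% of all genes. With testosterone propionate against estradiol in the duct 84 of 93 and 28 of 30 were positive, against 51.2% of all genes, and again 0 passed. In the caput testosterone propionate raised 1 of the 93, Tctex1d4 at 1.33 (adjusted p = 0.0280), and against estradiol 0 of the 93 passed, while 1 of the 30 transport genes, Ift43, was lower at -0.74 (adjusted p = 0.0453). The 2 lists were chosen as the members were, with results of these data known.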

How the data were processed

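RNA of 16 samples was measured on 1-colour mouse expression arrays. The deposited table holds 1 intensity per probe set and array on a linear scale, and the submitters' processing notes name RMA. Its values have a 2% trimmed mean of 125 on every array, so the scaling was done by the authors before deposit, in a way not given in the sources used here. Intensities were taken to log2 here with no floor. Of 45101 probe sets 34958 carried 1 gene symbol, 932 several and 9211 none in the platform annotation. A gene was read from its brightest probe set with 1 symbol, over all 16 arrays. For 11 members several existed, and their signs differed between probe sets in 3 to 9 of them, depending on the comparison. Readings of different probe sets are not compared as levels of transcripts.

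Differences were tested with limma 3.58.1 in R 4.3.3 (lmFit and eBayes), with 1 model per tissue (8 arrays, 4 groups) and 1 model of all 16 arrays for the tissue contrasts and for the difference of castration effects. The p-values were adjusted by Benjamini-Hochberg over all 18194 genes, with a threshold of 0.05. On simulated independent normal values with known changes, the fits were checked for the size and sign of their estimates. That check held no unlike array sets and does not give the rate of false calls in these data. A fold against a group below background is a lower bound, computed with background in its place. Array number limits the precision. Tables and plots used Python 3.11.15 with pandas 2.3.3, numpy 2.4.6 and matplotlib 3.10.9. Replicate numbers were not taken as pairs, since the labels name no pairing, and the fits took all arrays as independent. Deviations from group means of same-numbered arrays correlated at -0.05 to 0.07. Such values cannot show that samples were unpaired, since they also hold the noise of single arrays. The correlation of replicate arrays was 0.895 to 0.956, and no array was a copy of its replicate.

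The members and the other gene lists were chosen with earlier results of these data known. Values on every array were given for the members past the threshold in the caput comparisons of castration and testosterone propionate or in the efferent duct comparisons within like arrays. They were also given for the 5 brightest and 3 dimmest members in sham ducts, the 4 transcription factor genes, and the 5 largest and 3 smallest tissue differences. Of the other lists up to 3 genes each way with the largest called change were named. Members added beyond this rule were chosen after their values were seen.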

Additional observations from a re-analysis of the deposited data

Results flagged for a closer look

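The effect of castration on Cfap53, which codes for a protein inside the axonemal doublets, differed between the tissues by 1.81 on the log2 scale (efferent duct minus caput, adjusted p = 0.0167 in limma's test of that difference). In the caput it went from 193 and 215 in sham to 70.2 and 72.9 in castrated animals, and in the efferent duct from 165 and 158 to 155 and 254. Both caput arrays were lower after castration, while the castrated duct arrays lay 1 on each side of the sham arrays. It was the 1 member of 38 that passed this test, against 3.23% of all genes. Its call was lost when any 1 of the 4 caput arrays was left out (adjusted p = 0.0530 to 0.0574) and with a replicate block (adjusted p = 0.101).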

How the results depend on the processing

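Called members without the 40% dimmest genes numbered 18 for castration in the caput, 2 for testosterone propionate there, 2 for testosterone propionate against estradiol there, 1 for that comparison in the duct and 3 for the difference of castration effects. With an intensity trend they were 18 for castration in the caput, 2 in the duct, 2 for testosterone propionate against estradiol in the duct and 3 for the difference of effects. A single fit of 16 arrays gave 19, 1 and 1 for the first 3 of these. With intensities under 16 set to 16 there were 2 for testosterone propionate against estradiol in the caput and 3 for the difference of effects. Hormone against castrated vehicle in the duct gave 11 for either hormone with quantile normalization, and 14 for testosterone propionate and 11 for estradiol with the mean of all probe sets. The replicate block left 0 members for the difference of effects and changed no other count by over 1.5 times. With the sham tissues it called 32, 31 higher and Deup1 lower. The mean of all probe sets reversed Spag16 for castration in the caput (-0.52), Rfx2 between the sham tissues (-0.57), Rfx2 for estradiol in the duct (-0.34) and Hydin between the castrated tissues (-0.69). The filter tests fewer genes and also changes the variance prior. The shares of all genes called under these settings are not given here, so the counts describe the members only. The causes of the shifts in counts and signs were not tested.

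Leaving out each array in turn gave 2 to 4 members for castration in the caput, 0 to 1 for testosterone propionate, and 0 to 0 for estradiol, for testosterone propionate against estradiol in either tissue and for castration in the duct. Hormone against vehicle in the duct gave 10 to 16 for testosterone propionate and 0 to 12 for estradiol, the tissue contrasts 28 to 31 in sham and 27 to 30 in castrated animals, and the difference of effects 0 to 2. Signal over background limits Spag6 and Cdc20b in the caput and on the vehicle arrays of the duct, and Zmynd10 in the sham caput.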

Other observations

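Lists of neighbouring machinery were counted beside the members, again with results of these data known when they were chosen. Of 11 measured genes of the BBSome, which sorts membrane proteins in cilia, 6 were higher and 2 lower in the sham efferent duct, where 23.4% and 31.0% of all genes were, and 1 rose with castration in the caput, Bbs2 at 0.58 (adjusted p = 0.0372). Of 23 genes of ordinary centriole duplication 10 were higher and 5 lower in the sham duct. In the castrated caput 2 of them rose, Sass6 at 1.00 (adjusted p = 0.0368) and Ccp110 at 0.74 (adjusted p = 0.0319), and 1 fell, Cep63 at -0.66 (adjusted p = 0.0420), shares near the 7.90% and 6.12% of all genes that rose and fell. Of 18 genes of cytoplasmic dynein and dynactin, which carry cargo in all cells, 4 were higher and 10 lower in the sham duct, with a median of -1.18. Dctn3 was the 1 of them that fell in the castrated caput, at -0.58 (adjusted p = 0.0403). The castration effect on Dync1i1 was higher in the duct than in the caput, by 2.39 (adjusted p = 0.0411).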
